A study of Rattus norvegicus with 4 samples.

Results

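Precursor B cells in rat blood were chosen by raw counts of unique molecular identifiers (UMIs, each standing for 1 captured RNA molecule). A barcode was a member if Igll1, Rag1 and Dntt summed to at least 3 UMIs, if Cd3e, Cd3d and Cd3g summed to at most 1 UMI, and if hemoglobin took under 40% of its UMIs. Barcodes had to hold at least 500 UMIs and 200 genes, with at most 20% mitochondrial UMIs. The rule found 51 members among 45986 such barcodes of the series, of which 40470 were under 40% hemoglobin. There were 12 members in the MSC-i.t library, 14 in the MSC-i.v library, 3 in the SCI library and 22 in the Sham library. They are set against 7264 other B cells, defined by at least 2 UMIs of Cd79b and Ms4a1 together under the same limits on Cd3 genes and hemoglobin. Since the rule reads these same cells, every difference from other B cells is a description, with no test.

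The study set up spinal cord injury (SCI) by Allen's weight-drop method in rats and compared ways of giving mesenchymal stromal cells, which the series title calls UC-MSCs. The MSC-i.t group received 10000000 cells per kg intrathecally and the MSC-i.v group 30000000 cells per kg intravenously, both at 72 hours and at 7 days after injury. The SCI group had the injury with no cells named for it. The series text describes injury in all 40 rats, 10 per group, and does not say what the Sham group underwent. Strain, age, sex and the time of blood sampling are not stated in the sources used here. Each group has 1 blood library, with no statement of how many rats it pools, so groups and libraries cannot be told apart, and intervals below cover counting error only.

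As background, B cells are made in the bone marrow. In pro-B cells Rag1 and Rag2 cut the immunoglobulin heavy chain locus, and Dntt (terminal deoxynucleotidyl transferase) adds untemplated bases at the joins. Igll1 and the Vpreb proteins form the surrogate light chain, which pairs with a new heavy chain as the pre-B cell receptor. Signals from that receptor switch the surrogate light chain and Dntt off, and Rag1 and Rag2 act again on the light chain loci in small pre-B cells. Mature B cells that leave the marrow carry surface immunoglobulin, Ms4a1 (CD20) and abundant MHC class II.

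The 4 libraries held from 63133881 to 91124523 UMIs. Members had medians of 3656 UMIs in MSC-i.t, 2924 in MSC-i.v, 3207 in SCI and 3124 in Sham, and other B cells had 3020, 2050.0, 3241 and 2724 in the same libraries. Summed over cells, members gave 46647 UMIs in MSC-i.t, 42692 in MSC-i.v, 12581 in SCI and 81274 in Sham, so the SCI values are the least precise. Between pairs of libraries 25 to 49 kept barcodes were shared, at most 0.580% of the smaller library. No member barcode was a member in a second library, and 1 was a kept barcode of another library. No member was among the 5% of barcodes with the highest doublet scores in its library.

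Of the 51 members, 49 had at least 1 UMI of a B-lineage gene outside the rule (Cd79a, Cd79b, Vpreb1, Vpreb2, Vpreb3, Pax5 or Ebf1). The other 2, both from MSC-i.t, went against the label. They met the rule through Dntt alone, with 4 and 3 UMIs, and had 0 UMIs of Cd79b and Ebf1. They held 48 and 76 UMIs of Lyz2 (lysozyme), 7 and 5 of Csf1r (the receptor of macrophage colony-stimulating factor) and 15 and 2 of Fcgr3a (an Fc receptor), which mark monocytes. Dntt was also seen in barcodes with at least 2 UMIs of Csf1r and Fcgr3a together that were neither members nor other B cells. Of these, 150 of 2653 had a Dntt UMI (5.65%, median depth 4264 UMIs), and the rule leaves at most 2 Dntt UMIs in them. T cells, taken as barcodes with at least 2 UMIs of the Cd3 genes together, gave 71 of 28376 (0.250%, median depth 5112 UMIs). They include the 22 barcodes with at least 3 rule UMIs that the Cd3 limit removed, 21 of them with B-lineage UMIs. Other B cells, where the rule also leaves at most 2 Dntt UMIs, gave 16 of 7264 (0.220%, median depth 2591 UMIs). Igll1 was found in none of the 2653 Csf1r and Fcgr3a barcodes, which allows a share of barcodes with an Igll1 UMI of up to 0.113%, and in 3 other B cells.

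Among the 49 B-lineage members, the rule genes came in few combinations. Igll1, Rag1 and Dntt were found together in 19 cells, Igll1 with Dntt in 9, Igll1 with Rag1 in 1 and Igll1 alone in 1. Rag1 was the only rule gene in the other 19 cells. No cell held Rag1 with Dntt and lacked Igll1.

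Since the surrogate light chain genes and Dntt were found in the same cells, sequences around the starts of the separating genes are printed here. They are RefSeq windows of build GRCr8, from 250 bases before to 50 after each gene's start, on the gene's strand; the deposited counts were made on mRatBN7.2. RefSeq lists Vpreb1 as Vpreb1a and Vpreb2 as Vpreb1b. The Igll1 window is chr11:97642937-97643236 (plus strand), with Vpreb1 at chr11:97630924-97631223 (plus), Vpreb2 at chr11:96514355-96514654 (minus), Rag1 at chr3:108383135-108383434 (minus) and Dntt at chr1:249805552-249805851 (plus). Capitals mark the E-box CAGGTG or its complement CACCTG, a site type bound by E proteins such as Tcf3.
Igll1: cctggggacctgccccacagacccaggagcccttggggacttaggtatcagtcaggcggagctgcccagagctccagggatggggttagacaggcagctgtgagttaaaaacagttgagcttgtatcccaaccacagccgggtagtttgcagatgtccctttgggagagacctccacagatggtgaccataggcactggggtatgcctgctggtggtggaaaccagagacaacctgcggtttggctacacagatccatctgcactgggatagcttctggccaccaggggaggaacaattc
Vpreb1: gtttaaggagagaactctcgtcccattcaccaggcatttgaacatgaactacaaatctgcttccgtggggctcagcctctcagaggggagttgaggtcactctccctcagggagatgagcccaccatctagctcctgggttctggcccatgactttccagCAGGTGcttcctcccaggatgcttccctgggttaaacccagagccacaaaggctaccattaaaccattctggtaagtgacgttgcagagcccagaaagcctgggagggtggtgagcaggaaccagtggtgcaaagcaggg
Vpreb2: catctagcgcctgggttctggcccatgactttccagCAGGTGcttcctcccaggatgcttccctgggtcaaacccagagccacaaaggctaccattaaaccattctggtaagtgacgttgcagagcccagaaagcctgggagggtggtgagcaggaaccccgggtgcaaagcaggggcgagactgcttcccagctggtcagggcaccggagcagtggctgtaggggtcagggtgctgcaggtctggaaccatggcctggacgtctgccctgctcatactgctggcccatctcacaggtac
Rag1: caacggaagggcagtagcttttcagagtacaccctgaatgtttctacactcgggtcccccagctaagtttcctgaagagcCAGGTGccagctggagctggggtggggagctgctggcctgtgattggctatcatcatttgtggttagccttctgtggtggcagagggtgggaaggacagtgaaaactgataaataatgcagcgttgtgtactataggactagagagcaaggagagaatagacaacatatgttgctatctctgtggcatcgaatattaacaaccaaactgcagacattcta
Dntt: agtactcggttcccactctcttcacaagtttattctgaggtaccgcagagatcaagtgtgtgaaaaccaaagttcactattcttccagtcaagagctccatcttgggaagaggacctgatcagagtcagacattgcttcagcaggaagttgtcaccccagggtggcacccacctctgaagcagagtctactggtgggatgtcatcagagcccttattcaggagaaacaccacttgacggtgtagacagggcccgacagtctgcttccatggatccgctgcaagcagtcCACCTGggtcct
The E-box letters were in 5 of 7 windows searched (those of Vpreb1, Vpreb2, Rag1, Dntt and Cd79a, not those of Igll1 and Rag2), against 18.8% of 33469 RefSeq promoter windows. The Vpreb1 and Vpreb2 windows hold it within near-identical flanking sequence, so these 2 matches are not separate. The Dntt match lies 39 bases after the gene's start, on the opposite strand, while the others lie before the start. The palindromic EBF1 motif was in 0 of the 7 windows and in 0.834% of all windows. Both strands were searched, and a match of letters is a description of the window.

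The threshold of 3 UMIs, which uses the rule genes themselves, lay close to some members and far from others. The summed count of Igll1, Rag1 and Dntt had a median of 8 and reached 43, and 15 members had exactly 3. Of these 15, 14 were Rag1-only cells and 1 was a member with monocyte genes. Just outside, 41 barcodes had exactly 2 such UMIs, of which 18 had a B-lineage gene and 0 had Vpreb1 or Vpreb2.

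The limit on Cd3 genes removed 22 barcodes with at least 3 UMIs of the rule genes, 3 in MSC-i.t, 4 in MSC-i.v, 1 in SCI and 14 in Sham. Of the 22, 21 had a UMI of Cd79b, Ebf1, Vpreb1 or Vpreb2. In 8 of them Cd3g was the only Cd3 gene with a UMI, and 7 of these 8 had no UMI of the T cell genes Cd2 and Lck. The other 14 had Cd3e or Cd3d and a median of 9141 UMIs, against 4247 UMIs for the 8. Cd3g, which encodes a chain of the T cell receptor complex, was also seen within the limit: 13 of 51 members had 1 UMI (25.5%, 95% exact binomial interval 14.3 to 39.6%) against 552 of 7264 other B cells (7.60%, 7.00 to 8.23%). Cd3e was at 0 in all 51 members and Cd3d had 1 UMI in 1 member.

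The 49 B-lineage members fell into 30 Igll1-positive and 19 Igll1-negative cells, a split made after the values were seen. In the Igll1-positive cells Igll1 had 2 to 14 UMIs per cell (median 5.5). Dntt was found in 28 of the 30 and in 0 of the 19. Vpreb1 or Vpreb2 was found in 29 of the 30, against 1 of the 19. Rag1 was found in 20 of the 30 and, by the rule, in each of the 19, where it had 3 to 6 UMIs. Pan-lineage genes differed in how often they were detected. Cd79a had a UMI in 14 Igll1-positive and 5 Igll1-negative cells, and Pax5 in 3 and 1. Cd79b, the signalling chain of the B cell receptor, had a UMI in all 30 Igll1-positive and 18 Igll1-negative cells, and Ebf1, the factor that specifies the B lineage, in 26 and 17. Their levels differed: Cd79b stood at 1215 CPM in Igll1-positive and 2434 CPM in Igll1-negative cells, and Ebf1 at 789 and 1196 CPM.

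**Figure D1:**
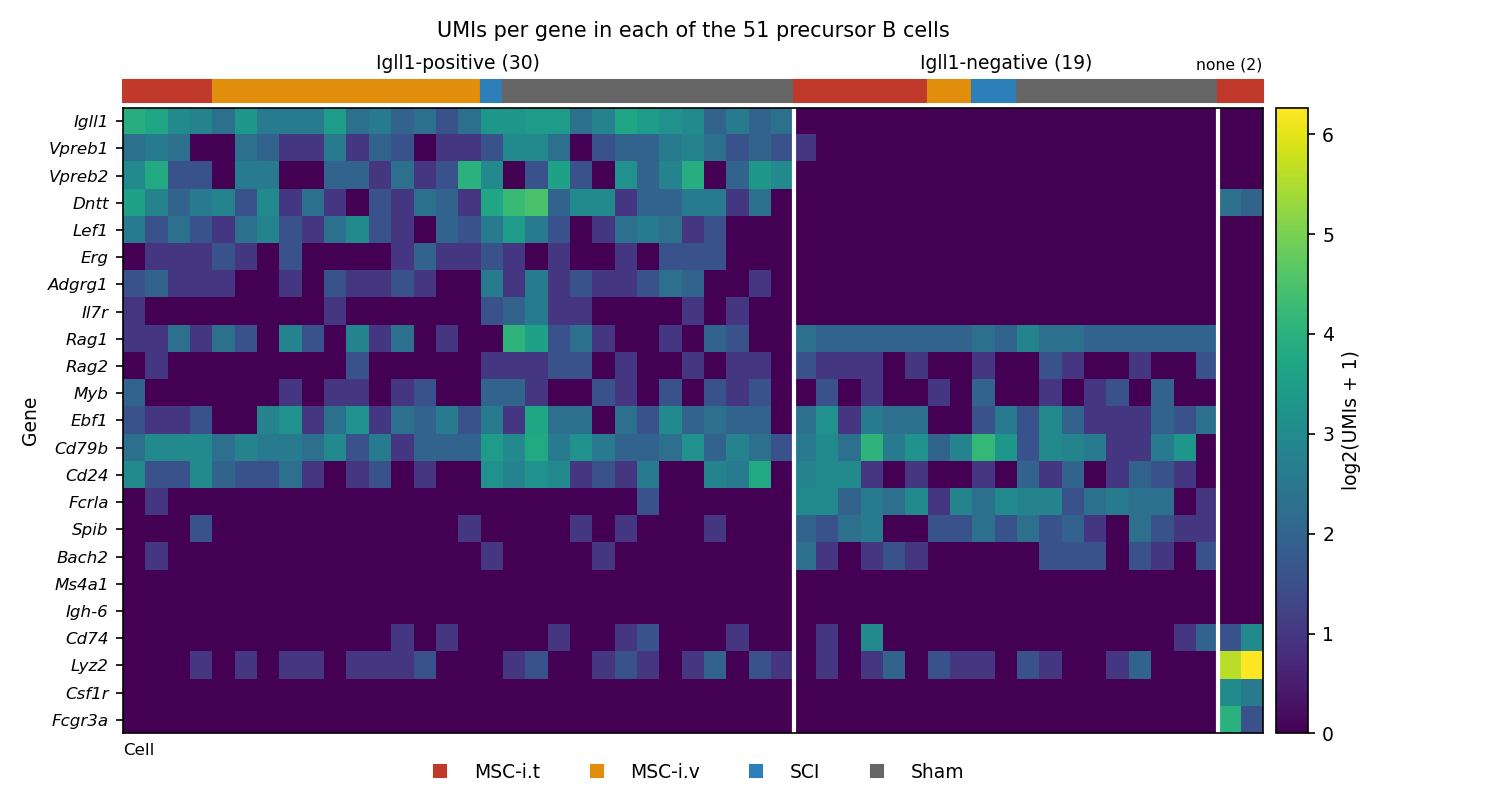
Each column is 1 of the 51 members and each row 1 gene; colour is log2(UMIs + 1) and the strip on top gives the library. Vpreb2, Lef1 and Erg are seen only among the 30 Igll1-positive cells on the left, as is Igll1, which made the split, Fcrla and Spib mainly in the 19 Igll1-negative cells, and Lyz2, Csf1r and Fcgr3a at high counts only in the 2 members with no B-lineage gene.

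Summed over cells, 1269 genes had at least 20 UMIs in the 2 states together. Of these, 104 (8.2%) were at least 2-fold higher and 93 (7.33%) at least 2-fold lower in Igll1-positive cells, on a log2(CPM + 50) scale, where CPM is the UMIs of a gene over all UMIs of the summed cells, times 1000000. Igll1-positive cells gave 126786 UMIs and Igll1-negative cells 47661, with medians of 3899 and 2422 UMIs per cell.

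Surrogate light chain genes were on the Igll1-positive side. Vpreb2 had 135 UMIs in Igll1-positive cells and 0 in Igll1-negative cells, which is at least 16.9-fold higher at the limit of 3 counts for a group at 0. Vpreb1 had 85 and 1 UMIs. Vpreb1 and Vpreb2 are near-identical copies, so the split of reads between them is uncertain. Lef1, a transcription factor of early lymphocytes, had 85 UMIs in Igll1-positive cells, found in 25 of 30, and 0 in Igll1-negative cells. Erg, an ETS factor of early progenitors and pro-B cells, had 25 and 0 UMIs. Adgrg1, an adhesion G protein-coupled receptor, had 42 and 0, and Ctla2a had 47 and 0. Vpreb2, Lef1, Erg, Adgrg1 and Ctla2a had UMIs in the Igll1-positive cells of all 4 libraries and none in the Igll1-negative cells of any library. Il7r, the interleukin-7 receptor on which early rodent B cells depend, was found in 9 of 30 Igll1-positive and 0 of 19 Igll1-negative cells.

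Other genes, several of them also present in other B cells, were higher in Igll1-negative cells. Fcrla, an Fc receptor-like protein of B cells, had 3 UMIs in Igll1-positive cells and 83 in Igll1-negative cells, found in 2 of 30 and 18 of 19. Spib, an ETS factor of B cells, had 6 and 42 UMIs. Bach2, a transcription factor that holds B cells before plasma cell fate, had 3 and 20 UMIs. Cd72, a B cell co-receptor, had 14 and 33, Lyn, a kinase of receptor signalling, 8 and 19, and Foxp1 7 and 24. Blnk, the adaptor downstream of the pre-B cell receptor, stood at 655 CPM in Igll1-positive and 1406 CPM in Igll1-negative cells. Rag2 stood at 110.4 and 273 CPM, and Cxcr4, the receptor that holds B precursors in the marrow, at 126 and 378 CPM. The Rag2 values rest on 14 and 13 UMIs, with 0 in the Igll1-negative cells of MSC-i.v. Igll1-negative cells met the rule by Rag1 alone, and the part of that choice in their Rag2 level was not tested. The unnamed gene LOC100361706 had 1 UMI in Igll1-positive cells and 167 in Igll1-negative cells, against 3777 CPM in other B cells. Not all genes of other B cells went this way. Tagln2 stood at 394 CPM in Igll1-positive, 42.0 in Igll1-negative and 408 in other B cells, and Id3 at 181, 0 and 287 CPM. Of the mature B cell list only 1 gene was measured between the states, and it was neither higher nor lower.

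These genes were chosen for their difference, so their detection at equal depth is a description. After each cell was thinned to 2000 UMIs, which left out 2 Igll1-positive and 3 Igll1-negative cells, Fcrla was found in 1 of 28 and 16 of 16 cells, Spib in 5 of 28 and 14 of 16, Vpreb1 in 21 of 28 and 0 of 16, and Lef1 in 19 of 28 and 0 of 16. At the same depth 61.8% of 5543 other B cells had Fcrla and 6.08% had Lef1. Ms4a1, and the gene the files list as Igh-6, had 0 UMIs in all 51 members. At 2000 UMIs per cell 41.6% of other B cells had Ms4a1, but only 0.794% had Igh-6, so the absence of Igh-6 does not set members apart.

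Few members were cycling. With at least 5 UMIs from 23 cell cycle genes at 2000 UMIs per cell as the definition, 1 of 44 B-lineage members was cycling (2.27%, interval 0.0575 to 12.0%), against 101 of 5543 other B cells (1.82%, 1.49 to 2.21%). At 1000 UMIs per cell it was 0 of 49 members, which allows a share of up to 7.25% by the exact interval, and 28 of 7187 other B cells (0.390%), so this definition finds fewer cells at that depth. The depth cannot show a difference of this size.

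Against other B cells of the same library, members were described by the log2 ratio of CPM with 10 CPM added to both, averaged over the 4 libraries. A gene counted as higher or lower if the mean was at least 1 in size and the sign was the same in each library. Of 4702 genes with a mean of at least 20 CPM, 299 (6.36%) were higher and 391 (8.32%) lower, with a median of -0.01 over all. Among genes with at least 10 UMIs found or expected in members, a limit added after the data were seen, 248 were higher and 278 lower. When UMIs were first summed over the 4 libraries, 483 were higher and 325 lower, 245 and 286 of them shared with the first count. A gene with few UMIs in members passes as lower more easily than as higher, since 0 UMIs in the 3 SCI cells already gives a negative ratio.

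Apart from the rule genes, the surrogate light chain genes were the highest. Vpreb2 stood at 515 CPM in MSC-i.t, 914 in MSC-i.v, 556 in SCI and 799.8 in Sham precursors, and at most 0.501 CPM in other B cells of any library. Its mean log2 ratio was 6.06 ± 0.39 (SD, n = 4 libraries). Vpreb1 followed at 4.96 ± 0.81, and Vpreb3 had no UMI in either population. Of the 9 measured genes of the pre-B cell receptor and its signalling (median -0.02), 3 were higher (Vpreb1, Vpreb2, Blnk), 2 were lower (Syk, Lyn) and 4 were neither. Blnk averaged 2.14 ± 0.22. The kinases Syk and Lyn averaged -1.08 ± 0.93 and -1.02 ± 0.69. Summed over libraries, Syk stood at 94.6 CPM in Igll1-positive members, 189 in Igll1-negative members and 180 in other B cells. Lyn stood at 63.1, 399 and 252 CPM in the same order. Both were thus below other B cells in the Igll1-positive state only. The receptor chains Cd79a and Cd79b averaged 0.37 ± 0.67 and -0.79 ± 0.55. Cd79b was used to choose the other B cells, so its ratio is set in part by that choice.

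Among V(D)J recombination genes outside the rule, Rag2 was the only 1 of 5 measured genes that was higher, and none was lower. It stood at 150.1 CPM in MSC-i.t, 46.8 in MSC-i.v, 159 in SCI and 197 in Sham precursors, against 1.32, 2.20, 1.73 and 3.17 CPM in other B cells of those libraries. Its mean was 3.47 ± 0.83. The list's median was -0.05.

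Of 17 early B lineage transcription factors (median 0.21), 5 were higher: Myb, a progenitor factor, at 4.01 ± 0.83, Erg at 3.81 ± 0.77, Lef1 at 3.35 ± 0.75, Ebf1 at 2.06 ± 0.27 and the E protein Tcf3 at 1.21 ± 0.43. Ebf1 stood at 686 CPM in MSC-i.t, 984 in MSC-i.v, 954 in SCI and 874 in Sham precursors, above 178 to 229.6 CPM in other B cells. Ikzf3, Irf8 and Mef2c were lower, with Mef2c, a factor of mature B cell activation, at -3.67 ± 1.48. Pax5, the factor that holds B cell identity, rested on 4 UMIs in members and averaged 0.21 ± 1.36.

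Of 5 measured progenitor receptors and surface proteins (median 0.92), Cd24 and Il7r were higher. Cd24, a surface protein of immature B cells, stood at 858 CPM in MSC-i.t, 375 in MSC-i.v, 715 in SCI and 837 in Sham precursors, against 62.4 to 127 CPM in other B cells (2.86 ± 0.46). Il7r averaged 2.66 ± 1.37 on 16 UMIs. Flt3, Cd34, Mme and Il2ra, markers of earlier progenitors or other precursor stages, were at 0 in members, and Kit had 1 UMI. All of them were too low in both populations to be measured, and Mme had no UMI in other B or T cells either. Their absence therefore does not set members apart.

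The other named genes highest in members were Arpp21 (4.57 ± 0.53), Plxnd1, a semaphorin receptor (4.25 ± 0.26), Tifa, an adaptor of NF-kB signalling (4.06 ± 0.34), Tmprss3, a membrane serine protease (3.94 ± 0.67), Stambpl1, a deubiquitinase (3.92 ± 0.57), and Tfdp2, a partner of E2F factors (3.77 ± 0.38). Adgrg1 averaged 4.63 ± 0.57 and Ctla2a 3.89 ± 0.41. Tifa was the most abundant of them, at 1758 CPM in MSC-i.t, 1733 in MSC-i.v, 2385 in SCI and 2042 in Sham precursors, against 88.0 to 161 CPM in other B cells. Adgrg1 was close to absent from other B cells, with 2 UMIs in 7264 cells.

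MHC class II had the lowest median of the gene lists. All 8 measured genes of the list were lower (median -6.42). Cd74, the invariant chain, stood at 364 CPM in MSC-i.t, 46.8 in MSC-i.v, 0 in SCI and 111 in Sham precursors, against 9399.5 to 10332 CPM in other B cells. RT1-Da, a class II alpha chain, had 2 UMIs in members, both in MSC-i.t, against 135857 in other B cells. Ciita, the class II transactivator, had 0 UMIs in members. Ifi30, a lysosomal thiol reductase of antigen processing, was also at 0, which is at least 81.5-fold lower over the summed members. The 2 MSC-i.t members with monocyte genes held 9 of the 28 Cd74 UMIs.

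Of 13 mature B cell genes (median -2.59), 11 were lower and none higher. Tnfrsf13c, the receptor for the survival factor BAFF, had 0 UMIs in members, at least 22.5-fold lower. Fcmr, the Fc receptor for IgM, averaged -4.40 ± 2.02, and Fcer2 (CD23) and Cd83 were at 0. Ms4a1 was at 0 as well, but it was used to choose the other B cells. Cd37 (0.42 ± 0.52) and Cd22 (-1.04 ± 1.34, with both signs among libraries) were neither. Igh-6 had 0 UMIs in members and 5584 in other B cells, but those sat in few cells. At 2000 UMIs per cell 44 of 5543 other B cells had it (0.794%). Pxdc1 (-5.29 ± 0.07) and Gga2, a Golgi sorting adaptor (-4.42 ± 1.25), were among the 12 lowest. Napsa, an aspartic protease, was too (-4.65 ± 2.97), and its 30 UMIs in members all came from the 2 MSC-i.t members with monocyte genes.

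Of 7 measured homing genes (median -2.44), 4 were lower, among them the chemokine receptor Ccr6 (-4.15 ± 0.14), S1pr1, the receptor for egress into blood (-2.44 ± 1.15), and Itgb7 (-2.92 ± 0.10). Itgb1 was higher (1.22 ± 0.94). Cxcr4 was neither (-0.10 ± 0.88). Of 5 survival genes (median -0.26), Bcl2l1 was higher (2.15 ± 1.04, on 11 UMIs) and Bcl2 lower, with 0 UMIs in members and a mean of -2.97 ± 0.21. Both encode proteins that block apoptosis. Of 5 measured cell cycle genes (median -0.19), Mcm3 was lower and none was higher.

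**Figure D2:**
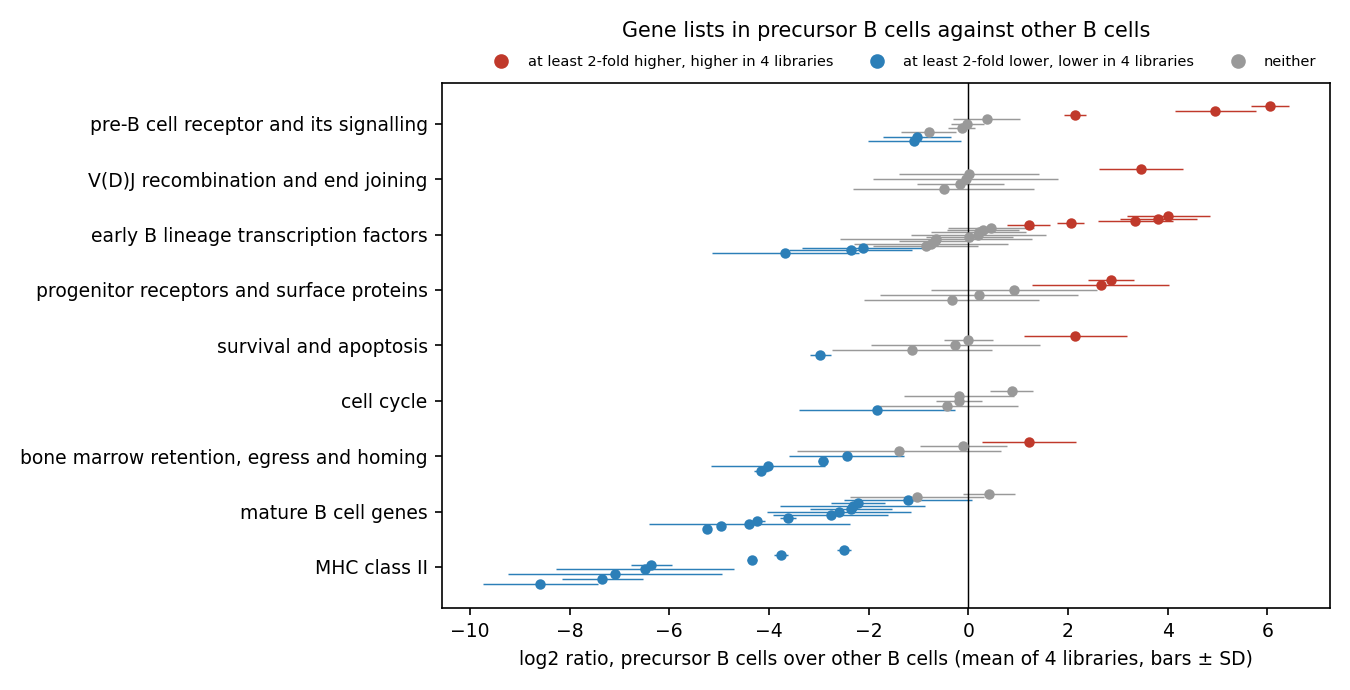
Each point is 1 measured gene, placed by its log2 ratio of precursor B over other B cells (mean of 4 libraries, bars ± SD); red points are higher and blue points lower in all 4 libraries by at least 2-fold on average. All 8 MHC class II genes and 11 of 13 mature B cell genes are blue, and Vpreb2 at 6.06 is the point farthest right.

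**Figure D3:**
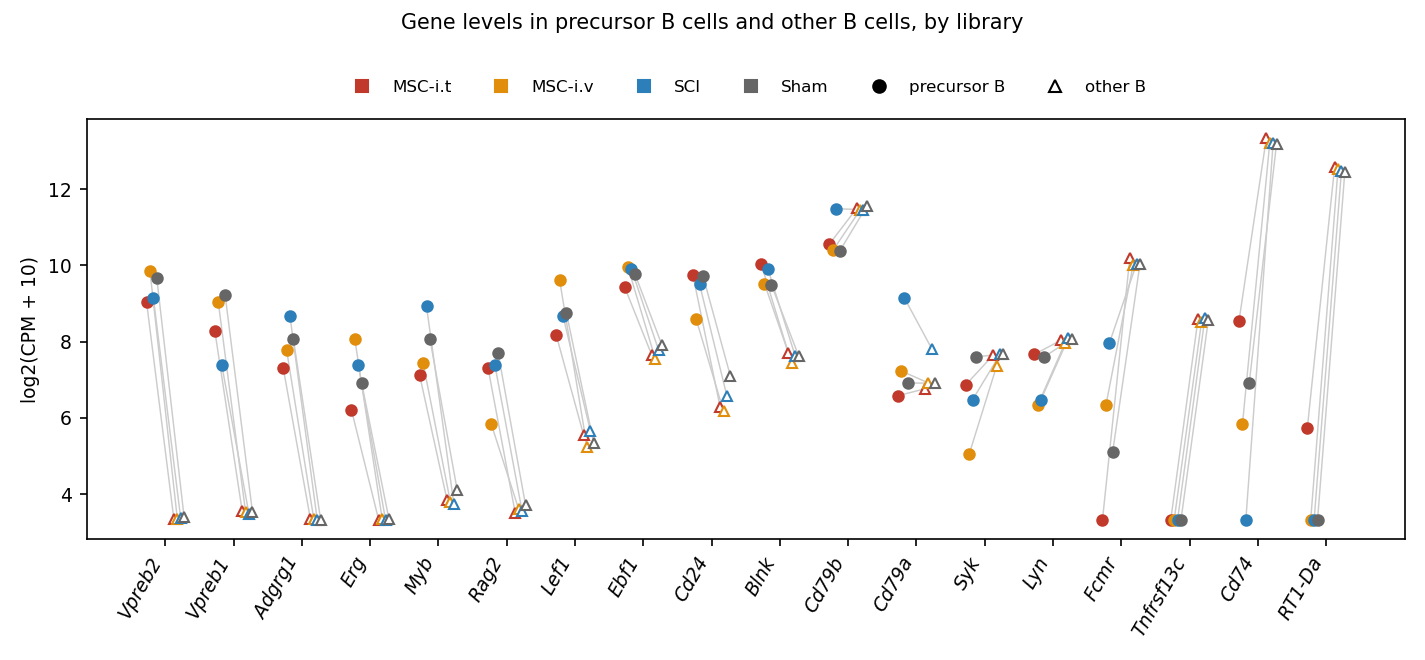
For 18 genes, filled circles show precursor B cells and open triangles other B cells of the same library, as log2(CPM + 10), with grey lines joining the pair of each library. Vpreb2, Vpreb1, Adgrg1, Erg, Myb and Rag2 lie near the floor in other B cells. Tnfrsf13c lies at the floor in all 4 precursor samples, RT1-Da in 3 and Cd74 in 1.

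Markers of other cell types were mixed in the 49 B-lineage members, with some lists mostly at 0 and others summing above other B cells. Of 8 monocyte genes, Csf1r, Cd14, Vcan and Fcgr3a were at 0, and the list summed to 79.5 to 375 CPM per library, against 356 to 2712 CPM in other B cells. Of 7 NK cell genes 6 were at 0, and of 8 stem and myeloid progenitor genes 7. The stem and myeloid progenitor list summed to at most 2.01 CPM in other B cells too. Of 7 thymocyte genes, Ptcra, Notch3 and Bcl11b were at 0, and the list summed to 79.2 to 238 CPM, against 46.1 to 54.0 CPM. Of 8 plasmacytoid dendritic cell genes 6 were at 0, Siglech and Irf7 among them, and Bst2 was higher (1.85 ± 1.47). That list, which also holds the B cell factor Spib, summed to 1082 CPM in MSC-i.t, 164 in MSC-i.v, 874 in SCI and 455 in Sham B-lineage members, against 246 to 378 CPM in other B cells. The 9 T cell genes summed to 185 to 477 CPM, against 116 to 126 CPM in other B cells, with Cd3g (1.29 ± 0.24) and Il7r as the genes that were higher. The 6 erythroid genes summed to 1669 to 5692 CPM in members and 7571 to 32479 CPM in other B cells, with the hemoglobin gene Hba-a2 at -2.33 ± 0.15. The part of these markers in the profile was not tested.

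Other B cells were then divided by genes the rule did not use. One subset had at least 1 UMI of Fcer2 or Fcmr (6669 cells), and the other had Cd24 and neither of those 2 genes (109 cells). Against the 109 Cd24-positive cells, 253 of 4691 genes (5.39%) were higher and 186 (3.97%) lower in members, and the easier passing of low-count genes as lower applies here too. Of the 299 genes higher against all other B cells, 130 (43.5%) were also higher here, and of the 391 lower genes 92 (23.5%) were also lower. Against the 6669 cells with Fcer2 or Fcmr, 304 of 4712 genes (6.45%) were higher and 401 (8.51%) lower.

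Several members' genes were present in the Cd24-positive subset. Summed over libraries, Ebf1 stood at 857 CPM in members, 636 CPM in Cd24-positive cells and 202 CPM in cells with Fcer2 or Fcmr. Rag1 stood at 748, 144 and 0.814 CPM in the same order of populations. Rag1 is a rule gene, and a B cell with 3 Rag1 UMIs became a member, so its gap to members is set in part by the rule. Rag2 stood at 147, 102 and 0.718 CPM, and Myb at 218, 98.4 and 3.21 CPM. Cd74 stood at 153, 2557 and 10254 CPM. The Igll1-negative members were nearer to the Cd24-positive cells in Fcrla and Spib: Fcrla stood at 1741 CPM in Igll1-negative members, 23.7 CPM in Igll1-positive members and 1367 CPM in Cd24-positive cells, and Spib at 881, 47.3 and 623 CPM. Igll1, Vpreb2, Dntt and Erg had no UMI in the Cd24-positive cells. For the rule genes Igll1 and Dntt, the rule left only counts under 3 there. The Cd24-positive cells were chosen in part by low mature genes, and no test of nearness was made.

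Precursor B cells were a smaller share of barcodes in the SCI library than in the Sham library. They made up 0.0411% of barcodes under 40% hemoglobin in SCI (3 of 7308, 95% exact binomial interval 0.00847 to 0.120%) and 0.242% in Sham (22 of 9087, 0.152 to 0.366%). The log2 ratio of SCI over Sham was -2.56 (exact interval -4.94 to -0.83). MSC-i.t had 0.120% (12 of 9984, 0.0621 to 0.210%) and MSC-i.v 0.0994% (14 of 14091, 0.0543 to 0.167%). The Sham share was the highest and the SCI share the lowest of the 4.

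At the threshold of 3 rule UMIs, each library of treated rats lay between SCI and Sham. The log2 ratio over SCI was 1.55 for MSC-i.t (-0.34 to 4.02) and 1.28 for MSC-i.v (-0.57 to 3.72), so counting error alone covers equal shares. Over Sham it was -1.01 for MSC-i.t (-2.16 to 0.07) and -1.28 for MSC-i.v (-2.36 to -0.25). The 5 comparisons share the SCI and Sham libraries.

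Part of the gap went with the B lineage as a whole. Other B cells were 16.6% of the same barcodes in MSC-i.t, 21.2% in MSC-i.v, 11.9% in SCI and 19.2% in Sham. As a share of B-lineage cells, members were 0.719% in MSC-i.t (0.372 to 1.25%), 0.466% in MSC-i.v (0.255 to 0.780%), 0.343% in SCI (0.0708 to 0.999%) and 1.25% in Sham (0.784 to 1.88%). On this base SCI over Sham was -1.86 (-4.25 to -0.13) and MSC-i.v over Sham -1.42 (-2.50 to -0.39). MSC-i.t over SCI was 1.07 (-0.82 to 3.53) and MSC-i.v over SCI 0.44 (-1.40 to 2.88). Without the 2 MSC-i.t members that had monocyte genes, MSC-i.t over Sham was -1.27 (-2.52 to -0.14) of barcodes.

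**Figure D4:**
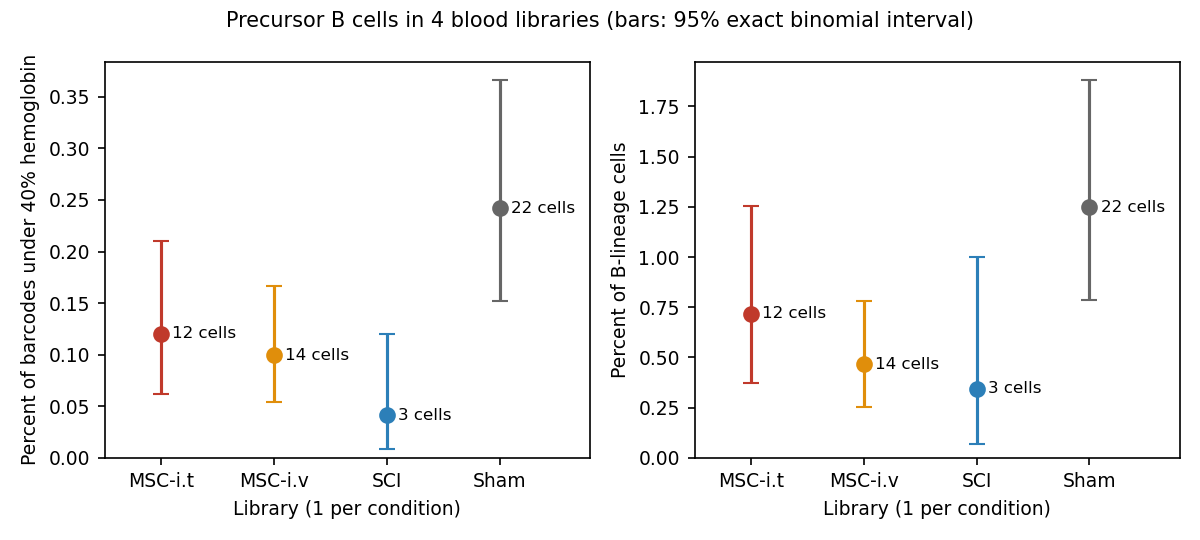
Points are the percent of precursor B cells in each of the 4 libraries, of barcodes under 40% hemoglobin on the left and of B-lineage cells on the right; bars are 95% exact binomial intervals, which cover counting error only. Sham is highest in both panels, at 0.242% and 1.25%, and SCI is lowest, at 0.0411% and 0.343%.

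The SCI share rests on 3 cells, and its gap to Sham depended on the threshold. With at least 2 UMIs of the rule genes, members were 10 in SCI and 34 in Sham, and SCI over Sham was -1.45 of barcodes (-2.63 to -0.40) and -0.76 of B-lineage cells (-1.94 to 0.29). At that threshold members were 0.961% of B-lineage cells in MSC-i.v, 1.14% in SCI and 1.92% in Sham, so MSC-i.v lay below SCI (log2 ratio -0.24, -1.32 to 0.96), and MSC-i.t over SCI was -0.00509 (-1.18 to 1.26). After each barcode was thinned to 2000 UMIs, SCI over Sham was -1.97 of barcodes (-3.99 to -0.39) and -1.37 of B-lineage cells (-3.39 to 0.21). With no Cd3 limit for members, an alternative added after the data were seen, there were 15 members in MSC-i.t, 18 in MSC-i.v, 4 in SCI and 36 in Sham, and SCI over Sham was -2.86 of barcodes (-4.81 to -1.38).

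The mix of the states also varied. Igll1-positive cells were 4 of 10 B-lineage members in MSC-i.t (40%, interval 12.2 to 73.8%), 12 of 14 in MSC-i.v (85.7%, 57.2 to 98.2%), 1 of 3 in SCI (33.3%, 0.840 to 90.6%) and 13 of 22 in Sham (59.1%, 36.4 to 79.3%). The intervals overlap. Igll1-negative cells were 0.0142% of barcodes in MSC-i.v (2 cells, 0.00172 to 0.0513%) and 0.0990% in Sham (9 cells, 0.0453 to 0.188%). Igll1-positive cells were 0.0852% in MSC-i.v (12 cells, 0.0440 to 0.149%) and 0.143% in Sham (13 cells, 0.0762 to 0.245%).

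Gene levels within members were compared between libraries for genes with at least 30 UMIs in 1 of the 2 libraries, with at least 2-fold as the mark. SCI against Sham had 54 of 346 genes apart (15.6%), 10 higher and 44 lower. MSC-i.t against SCI had 29 of 204 (14.2%), MSC-i.v against SCI 17 of 179 (9.5%), MSC-i.t against Sham 24 of 357 (6.72%) and MSC-i.v against Sham 15 of 347 (4.32%). The shares were higher where the 12581 UMIs of SCI were 1 side. With no replicate library these counts have no test.

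For SCI over Sham, Cd79b was among the 4 highest, at 2861 CPM in SCI (36 UMIs) and 1317 CPM in Sham (107 UMIs), a log2 ratio of 1.12 (exact interval 0.53 to 1.68) against -0.10 in other B cells. Cd37, a tetraspanin of B cells, gave 1.19 (0.33 to 1.99), and Pgls and Smarca4 1.21 and 1.11. The 36 Cd79b UMIs of SCI came from 3 cells, with 17, 9 and 10 UMIs, and the interval counts UMIs, not cells. In SCI 1 of 3 members was Igll1-positive, the state with the lower Cd79b level, against 13 of 22 in Sham. The part of that mix was not tested. The 4 lowest, Hint1, Eif3m, Myl12a and Capza2, had 1 UMI each in SCI and 31 to 45 in Sham.

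For MSC-i.t, the highest genes over Sham were Fcer1g and Tyrobp, signalling adaptors of myeloid and NK cells, S100a4, and Napsa. Fcer1g had a log2 ratio of 5.50. Fcer1g stood at 1115 CPM in MSC-i.t (52 UMIs) and 24.6 CPM in Sham (2 UMIs), and all 52 UMIs came from the 2 members with monocyte genes. Without those 2 members, 15 genes were 2-fold apart between MSC-i.t and Sham, and 5 between MSC-i.t and SCI. Lyz2, the highest over SCI, stood at 2787 CPM in MSC-i.t (130 UMIs, 124 of them in those 2 members) and 79.5 CPM in SCI (1 UMI). The lowest over Sham were Pf4, a platelet chemokine, Phyh, Ifi27, an interferon-induced gene, and Tax1bp1, at -2.24 to -1.26. Over SCI the lowest were Pgls, Akap12, Cd37 and Eef1a1, at -1.49 to -1.09.

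For MSC-i.v over Sham, Pf4 was lowest, at 23.4 CPM in MSC-i.v (1 UMI) and 406 CPM in Sham (33 UMIs). The 6 platelet genes, Pf4 among them, summed to 93.7 CPM in MSC-i.v and 504 CPM in Sham members, and to 264 and 436 CPM in other B cells of those libraries; their part in other differences was not tested. Ifi27 stood at 117 CPM in MSC-i.v (5 UMIs) and 775 CPM in Sham (63 UMIs), a log2 ratio of -2.73 (-4.40 to -1.43), and was lower in other B cells too, at -1.93. Cacybp and Tagln2 were the other 2 of the 4 lowest (-1.88 and -1.84). Smarca4, a chromatin remodelling ATPase, was highest at 1.09 (0.38 to 1.82), followed by Lef1 at 0.89 (0.15 to 1.62), Srsf3 and Dnaja1. Lef1 stood at 773 CPM in MSC-i.v and 418 CPM in Sham, and MSC-i.v also had the higher share of Igll1-positive cells, in which Lef1 was found. Over SCI, Hint1, Ppib, Serbp1 and Fxyd5 were highest (1.61 to 3.14) and Akap12, Btg2, Cd79b and Pgls lowest (-1.29 to -1.08).

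Of the rule genes and their partners, levels in members varied among libraries by less than their difference from other B cells. Igll1 stood at 836 CPM in MSC-i.t, 1405 in MSC-i.v, 715 in SCI and 1119.7 in Sham precursors, with Poisson intervals that overlap for all pairs, and at most 0.167 CPM in other B cells. Dntt stood at 686, 749.6, 954 and 959.7 CPM in MSC-i.t, MSC-i.v, SCI and Sham precursors, and at most 1.42 CPM in other B cells. These values were used by the rule and are given as a description.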

How the data were processed

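Single-cell RNA libraries from rat blood, 1 per group, were deposited by the authors as raw UMI counts per gene and barcode from Cell Ranger 4, per the file headers, with build mRatBN7.2 per the submitters' processing notes. The labels' extraction protocol describes bulk RNA from cultured cells, and the cell capture method is not given in the sources used here.

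Counts of rows that share a symbol were summed. Shares carry 95% Clopper-Pearson intervals, CPM values exact Poisson intervals and ratios between libraries exact conditional binomial intervals (Python 3.11.15, scipy 1.17.1). UMIs are not pooled over libraries unless stated. A gene with 0 counts was set to 3 counts for fold limits. No test was run, since each group has 1 library. The profile and interval steps were tested on simulated data. Doublets were scored with Scrublet in scanpy 1.11.5 and removed only as an alternative.

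The members and gene lists were chosen with earlier results of these data known. Of 201 listed symbols, 190 were in the files. Named genes were the 12 highest and 12 lowest against other B cells and the 4 highest and 4 lowest between 2 libraries, leaving out rule, unnamed, mitochondrial, ribosomal, hemoglobin, immunoglobulin and sex-linked genes, together with list genes. Genes named between the 2 states, and the 2 states themselves, were chosen after their values were seen. Values of some listed genes are not reported here.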

Additional observations from a re-analysis of the deposited data

How the results depend on the processing

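No paired analysis was possible because each group has 1 library and no replicate numbers are shared. The log2 share ratio of SCI over Sham ran from -3.39 to -1.45 over 12 alternatives for barcodes and from -2.69 to -0.76 for B-lineage cells. With at least 2 rule UMIs, MSC-i.t over SCI was -0.00509 of B-lineage cells, against 1.07 with 3, and MSC-i.v over SCI -0.24, against 0.44. Of 4702 genes the profile gave 117 higher and 164 lower with 50 CPM added, and 483 higher on summed UMIs. With a mean of at least 100 CPM, 114 were higher and 108 lower of 1311 measured genes. With a mean of at least 5 CPM, 748 were lower of 7680 measured genes. These counts have different bases. Leaving out 1 library each gave 409 to 440 higher and 363 to 558 lower genes. With at least 15 UMIs, genes 2-fold apart numbered 91 (MSC-i.t) and 68 (MSC-i.v) against SCI, and 110 (MSC-i.t), 82 (MSC-i.v) and 181 (SCI) against Sham. With at least 5 rule UMIs MSC-i.t gave 4 against SCI and 15 against Sham. That threshold left 4 members in MSC-i.t, 1 in SCI and 13 in Sham, so these counts rest on few cells. Without the 2 members lacking B-lineage genes MSC-i.t gave 5 and 15. Both of these members have under 5 rule UMIs. The threshold also removed the 14 Igll1-negative cells with exactly 3, so the 2 settings differ in more than these 2 members. Cycling members were 0 at 1000 UMIs per cell. The cause of these changes was not tested. The 3 SCI cells limit every value for that library.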

Other observations

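Dntt outside the B lineage was seen in every library in the barcodes with at least 2 UMIs of Csf1r and Fcgr3a together. They held at most 2 Dntt UMIs each, which the rule fixed, since a barcode with 3 became a member. The share with a UMI was 5.88% in MSC-i.t (25 of 425, exact binomial interval 3.84 to 8.56%), 5.75% in MSC-i.v (65 of 1131, 4.46 to 7.27%), 8.71% in SCI (27 of 310, 5.82 to 12.4%) and 4.19% in Sham (33 of 787, 2.90 to 5.84%). Igll1, Rag1, Vpreb2 and Rag2 had no UMI in these 2653 barcodes, and Vpreb1 had 1. In T cells the Dntt share was 0.227% in MSC-i.t, 0.274% in MSC-i.v, 0.138% in SCI and 0.351% in Sham. These T cells include the 22 barcodes removed by the Cd3 limit, 14 of them in Sham. Of the 22, 21 had a UMI of Cd79b, Ebf1, Vpreb1 or Vpreb2, so these shares are not wholly from outside the B lineage. What gives rise to the Dntt counts was not tested.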
